A study of Mus musculus with 18 samples.

Results

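The genes described here code for 9 surface proteins through which a macrophage stimulates or restrains a T cell or is itself restrained: Cd80, Cd86, Icosl, Cd83, Cd274, Pdcd1lg2, Cd200r1, Sirpa and Havcr2. They were taken by symbol from a table of 25926 genes, and all 9 were found and passed the filter on low values in each comparison. RNA was sequenced from bone marrow-derived macrophages (BMDMs) of C57BL/6 mice in 18 samples, 6 in each of the groups NC, COM and COM+Met. The BMDMs had been grown in M-CSF at 50 ng/mL for 7 days and were cocultured in Transwells (0.4 μm pores), on the upper side, with renal tubular epithelial cells (TECs) from wild-type mice in every group. In NC the BMDMs received PBS and the TECs no crystals. In COM the BMDMs received PBS and the TECs calcium oxalate monohydrate crystals at 100 μg/mL for 24 h. In COM+Met the TECs were treated as in COM and the BMDMs received Met at 5 mM for 24 h (Met is not spelled out in the labels). Whether samples within a group were separate mice or cultures is not stated, so p-values measure only the spread between samples. Values are FPKM, fragments scaled to gene length and to the total of the sample, and read depth is unknown.

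CD80 and CD86 on an antigen-presenting cell bind CD28 on T cells, which stimulates them, and CTLA-4, which restrains them, and ICOSL stimulates them through ICOS. PD-L1, the product of Cd274, and PD-L2, the product of Pdcd1lg2, bind the inhibitory receptor PD-1. The CD200 receptor (Cd200r1), SIRPα (Sirpa) and Tim-3 (Havcr2) are receptors on the macrophage itself rather than ligands, and on binding CD200, CD47 and ligands such as galectin-9, respectively, the first pair restrain myeloid cells and Tim-3 modulates their activation.

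The promoters of Cd274 and Havcr2 are shown because these genes changed by over 2-fold in COM and hold a motif searched for, and that of Pdcd1lg2 was added as the genomic neighbour of Cd274. Cd274 (ENSMUSG00000016496; chr19:29367455-29388095) and Pdcd1lg2 (ENSMUSG00000016498; chr19:29410919-29471161) lie in the same orientation 22.8 kb apart (GENCODE M21, GRCm38). The windows of 250 bases before the RefSeq start of each gene are on GRCm38.p6, with motif matches in capitals.
Cd274 (chr19:29367188-29367437, + strand): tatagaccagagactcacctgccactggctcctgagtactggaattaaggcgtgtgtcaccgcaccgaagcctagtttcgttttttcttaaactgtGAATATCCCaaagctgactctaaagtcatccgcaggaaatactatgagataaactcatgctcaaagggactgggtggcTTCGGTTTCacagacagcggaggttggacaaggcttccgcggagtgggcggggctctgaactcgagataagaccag
Pdcd1lg2 (chr19:29410669-29410918, + strand): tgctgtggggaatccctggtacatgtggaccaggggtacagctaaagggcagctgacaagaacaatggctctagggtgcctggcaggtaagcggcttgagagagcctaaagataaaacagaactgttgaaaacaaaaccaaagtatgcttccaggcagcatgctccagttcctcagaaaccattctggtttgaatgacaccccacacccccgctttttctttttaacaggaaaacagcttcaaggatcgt
Havcr2 (chr11:46454681-46454930, + strand): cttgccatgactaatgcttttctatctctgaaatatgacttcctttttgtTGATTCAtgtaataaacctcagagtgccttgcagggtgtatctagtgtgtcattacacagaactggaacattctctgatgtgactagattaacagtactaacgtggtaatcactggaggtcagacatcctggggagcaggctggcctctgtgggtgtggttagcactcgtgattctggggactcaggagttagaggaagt
Capitals mark the NF-kappa B core GGGANNTTC (first base at -154 from the start) and the interferon-stimulated response element core GAAANNGAA (first base at -76) in Cd274, both read on the opposite strand, and the AP-1 site TGANTCA in Havcr2 (first base at -200). Of 32851 RefSeq promoter windows, which also include 50 bases after the start, 3.94% held the NF-kappa B core, 8.56% the interferon-stimulated response element core and 7.81% the AP-1 site on either strand. Windows were given for 5 of the 9 genes (not for Cd86, Cd83, Cd200r1 and Sirpa). Cd80 also held an AP-1 site (first base at -42 from its RefSeq start). Its window (chr16:38458683-38458932) lies inside the GENCODE span of the gene given below, so the site is not upstream of the GENCODE start. The windows of Icosl and Pdcd1lg2 held none of these letter patterns, nor the interferon-gamma activated site TTCNNNGAA, which 8.3% of windows held. Other spellings of these sites were not searched for. A match describes the letters of the window and is no measurement of binding.

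Libraries within groups were not alike. Across 10751 genes, Pearson's r of log2(FPKM + 1) between samples of a group was 0.938 to 0.995 in NC, 0.888 to 0.995 in COM and 0.989 to 0.995 in COM+Met. NC-5 and NC-6 stood apart from NC-1 to NC-4, and COM-1 to COM-3 from COM-4 to COM-6. COM-6 was also apart from COM-4 and COM-5 (r of 0.930 and 0.935). COM-4 and COM-5 were closer to COM-1 to COM-3 (0.948 to 0.951) than to COM-6. They were closer still to the COM+Met samples (0.977 to 0.982). COM-6 was also closer to the COM+Met samples (0.906 to 0.918) than to COM-1 to COM-3 (0.888 to 0.891). The labels do not mark these sets of NC and COM samples, and values without them are given below for each call among the 9 genes that they changed. Group means of all 9 macrophage markers exceeded 1 FPKM, while the summed level of 8 T cell markers was at most 4.72 FPKM in any sample. The macrophage markers did not stay level. Means in NC, COM and COM+Met were 112, 577 and 586 FPKM for Adgre1 and 8.05, 83.7 and 62.6 for Fcgr1. Those of Cd14 were 64.7, 401 and 378, whereas those of Mrc1 were 79.9, 3.26 and 2.62. Csf1r and Cd68 also had higher means in COM than in NC, and Itgam, Lyz2 and Mertk lower.

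**Figure D1:**
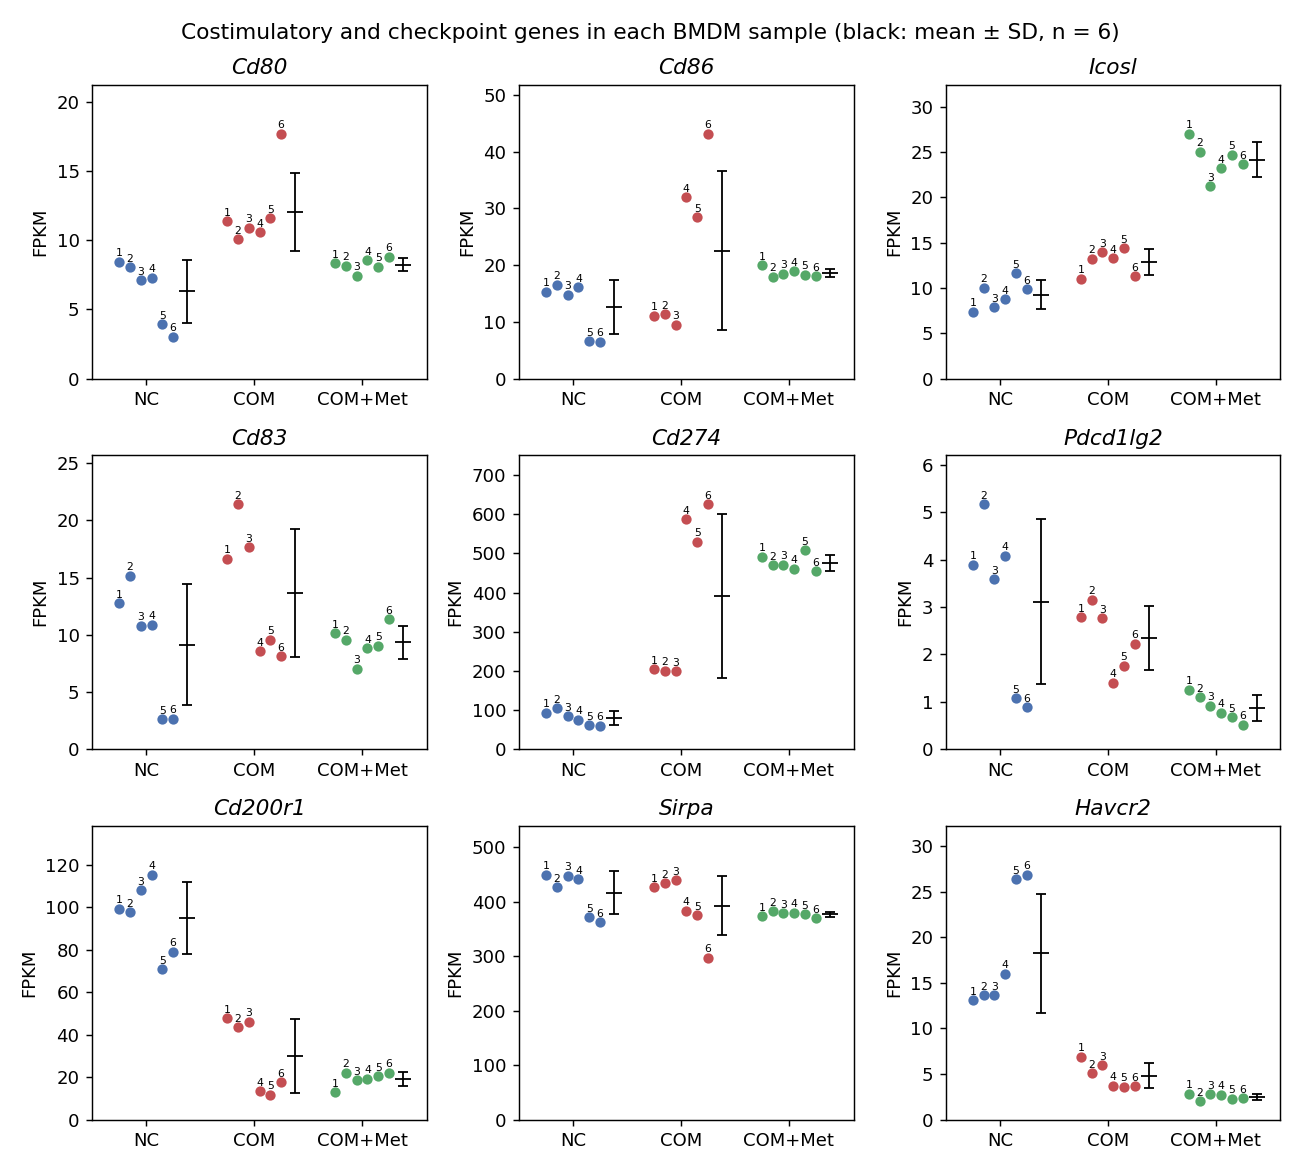
FPKM of each of the 9 genes (vertical axis, linear from 0) in the 6 samples of NC, COM and COM+Met. Points are samples with their replicate number, and black marks give the mean and SD. Cd274 lay above all NC samples in every COM and COM+Met sample, and Cd200r1 and Havcr2 below. COM-1 to COM-3 did not overlap COM-4 to COM-6 in any gene but Cd80 and Icosl.

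To see how crystal-exposed TECs altered these genes, COM was compared with NC. Of the 9 genes, 5 passed the test (limma, adjusted p below 0.05), near the share of 53.3% among all 10900 genes tested. Cd80, Icosl and Cd274 rose, against 12.7% of all genes, and Cd200r1 and Havcr2 fell, against 40.6%. At 2-fold or more, 3 of 9 genes passed (Cd274, Cd200r1 and Havcr2), against 17.7% of all genes. The groups did not overlap in 4 of 9 genes, against 38.2% of all genes. The median change of all genes was -0.27 on the log2 scale, and -0.0045 after division by median-of-ratios size factors, so changes relative to that median are given beside the fitted values of this comparison. Of all calls 23.8% were higher as deposited and 48.8% with those size factors, whereas the 5 calls among these genes kept their directions. The median of the 9 genes was 0.44.

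When Met-treated BMDMs were compared with COM, 4 of 9 genes passed the test, against 13.4% of 10364 genes tested. Icosl rose, against 5.77% of all genes, and Cd80, Pdcd1lg2 and Havcr2 fell, against 7.58%. These 4 were also the genes without overlap between the groups, against 11.2% of all genes. On the log2(FPKM + 1) scale none of the 9 reached 2-fold, against 2.22% of all genes, though the means of Pdcd1lg2 differed 2.70-fold and it reached 2-fold with a pseudocount of 0.1 (-1.34). The median change was -0.40 for the 9 genes and 0.0033 for all genes. COM is shared by these comparisons, so a high or low COM sample enters both.

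COM+Met differed from NC in 6 of 9 genes, against 75.2% of 10786 genes tested. Cd86, Icosl and Cd274 were higher, against 19.3% of all genes, and Pdcd1lg2, Cd200r1 and Havcr2 lower, against 55.9%. At 2-fold 5 of 9 passed, against 19.3% of all genes, and in 5 of 9 the groups did not overlap, against 57.6%. The median change of the 9 genes was 0.25, against -0.26 for all genes. With median-of-ratios size factors the median of all genes was -0.0049. Of all calls 25.6% were higher as deposited and 49.2% with those size factors, so the shares of higher and lower genes depend on the scaling.

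**Figure D2:**
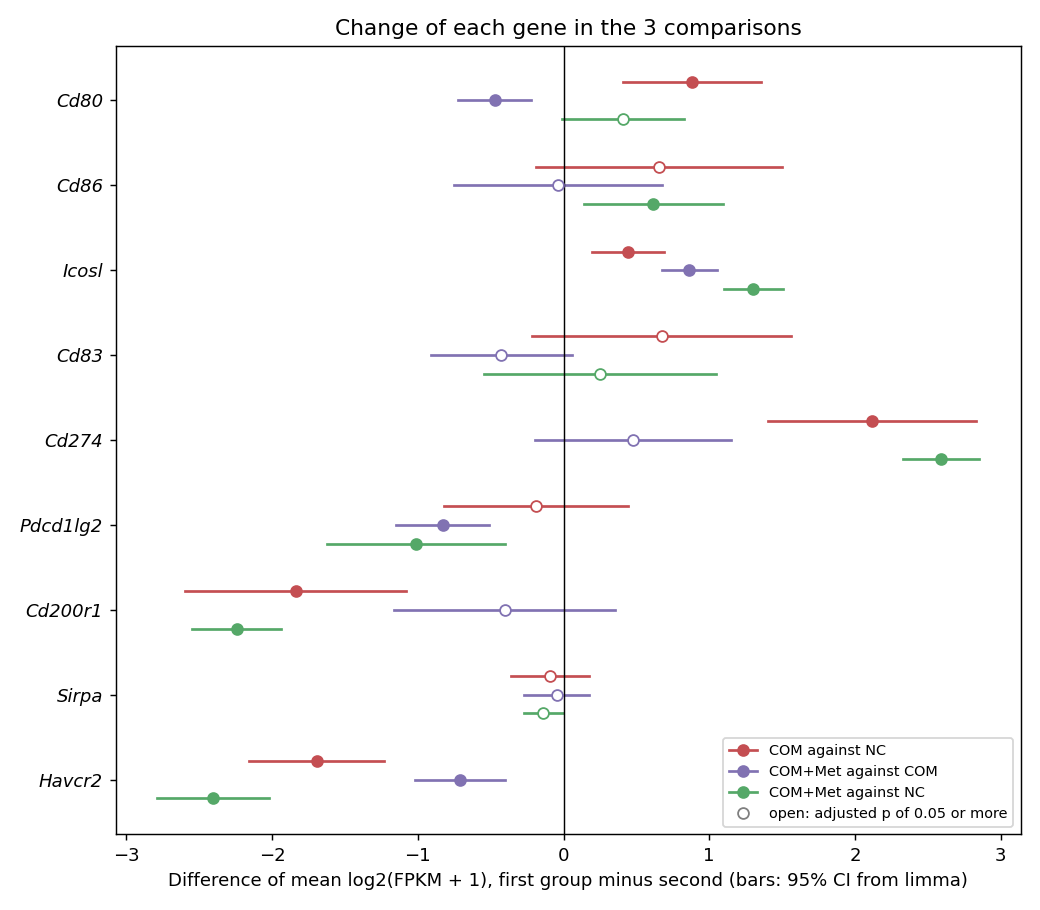
Change of each gene as the difference of mean log2(FPKM + 1) (horizontal axis) in COM against NC, COM+Met against COM and COM+Met against NC, each with 6 samples a group. Bars are 95% confidence intervals from limma and open points did not pass the test. Cd274 had the largest rise in both comparisons with NC, at 2.11 and 2.59, and Havcr2 lay below 0 in all 3 comparisons.

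Among the ligands of PD-1, Cd274 was abundant and Pdcd1lg2 scarce, and they moved apart. Cd274 ranged from 59.9 to 104 FPKM in NC (median 79.7), from 199 to 625 in COM (median 368) and from 455 to 508 in COM+Met (median 471). Every COM and COM+Met sample exceeded every NC sample, and within COM the samples formed a low set of 199 to 205 (COM-1 to COM-3) and a high set of 531 to 625 (COM-4 to COM-6), with COM+Met between them. In COM the mean was 391 ± 210 FPKM (SD, n = 6) against 79.7 ± 17.5 in NC, a ratio of 4.91. The log2 change was 2.11 (SE 0.33, adjusted p = 0.000201), or 2.38 relative to the median of all genes. It was 1.35 without COM-4 to COM-6, 2.88 without COM-1 to COM-3 and 1.94 without NC-5 and NC-6, and passed the test each time. In a bulk sample, more cells with the transcript and more transcript per cell cannot be told apart.

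COM+Met did not differ from COM in Cd274 by the test, with a log2 change of 0.48 (95% CI -0.20 to 1.15, adjusted p = 0.342). This value depended on which COM samples entered: it was 1.24 without COM-4 to COM-6 and -0.29 without COM-1 to COM-3, past the test in opposite directions. Against NC, Cd274 in COM+Met was higher by 2.59 (SE 0.12, adjusted p = 9.69e-10), a ratio of means of 5.97. The order of means was COM+Met, COM and NC, and the upper neighbours did not differ beyond their spread.

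Pdcd1lg2 ranged from 0.881 to 5.17 FPKM in NC (median 3.74), from 1.40 to 3.15 in COM (median 2.49) and from 0.514 to 1.26 in COM+Met (median 0.843). All COM+Met samples lay below all COM samples, while NC spanned both, since NC-5 and NC-6 were at 1.07 and 0.881 and the other NC samples at 3.58 or more. COM and NC did not differ by the test (log2 change -0.19, 95% CI -0.82 to 0.45, adjusted p = 0.604, and 0.084 relative to the median of all genes). Without NC-5 and NC-6 it was -0.65 and passed, while 2 other scalings and the fit without COM-4 to COM-6 put it slightly above 0. COM+Met was lower than COM by the test, with a log2 change of -0.83 (SE 0.15, adjusted p = 0.00343) and means of 0.870 ± 0.276 and 2.35 ± 0.674 FPKM (SD, n = 6 each). It remained past the test without COM-4 to COM-6 (-1.07) and without COM-1 to COM-3 (-0.58). Against NC the change was -1.01 (SE 0.28, adjusted p = 0.0054), or -0.75 relative to the median of all genes, with overlap. It was -0.84 with median-of-ratios size factors and -0.64 with quantile normalisation, both past the test but below 2-fold. It was -1.47 without NC-5 and NC-6, where the groups did not overlap. These levels are near the 1 FPKM filter, and the COM+Met mean of 0.870 lay below it. The log2(FPKM + 1) scale understates changes of low genes.

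Because a ratio within a sample does not depend on its scaling, Cd274 was set against Pdcd1lg2 sample by sample. The FPKM ratio was 18.4 to 68.0 in NC (median 23.7), 63.7 to 419 in COM (median 177) and 391 to 885 in COM+Met (median 557). NC-5 and NC-6 at 57.6 and 68.0 lay beside COM-1 to COM-3, and COM-4 overlapped COM+Met. Cd274 relative to Cd86 did not overlap among the 3 groups, with 4.69 to 9.38 in NC, 14.5 to 21.0 in COM and 24.4 to 27.7 in COM+Met. The low and high COM samples, apart in both genes, were close in this ratio. Cd274 relative to Cd80 was 10.3 to 19.9 in NC, 18 to 55.6 in COM and 51.5 to 63.3 in COM+Met.

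**Figure D3:**
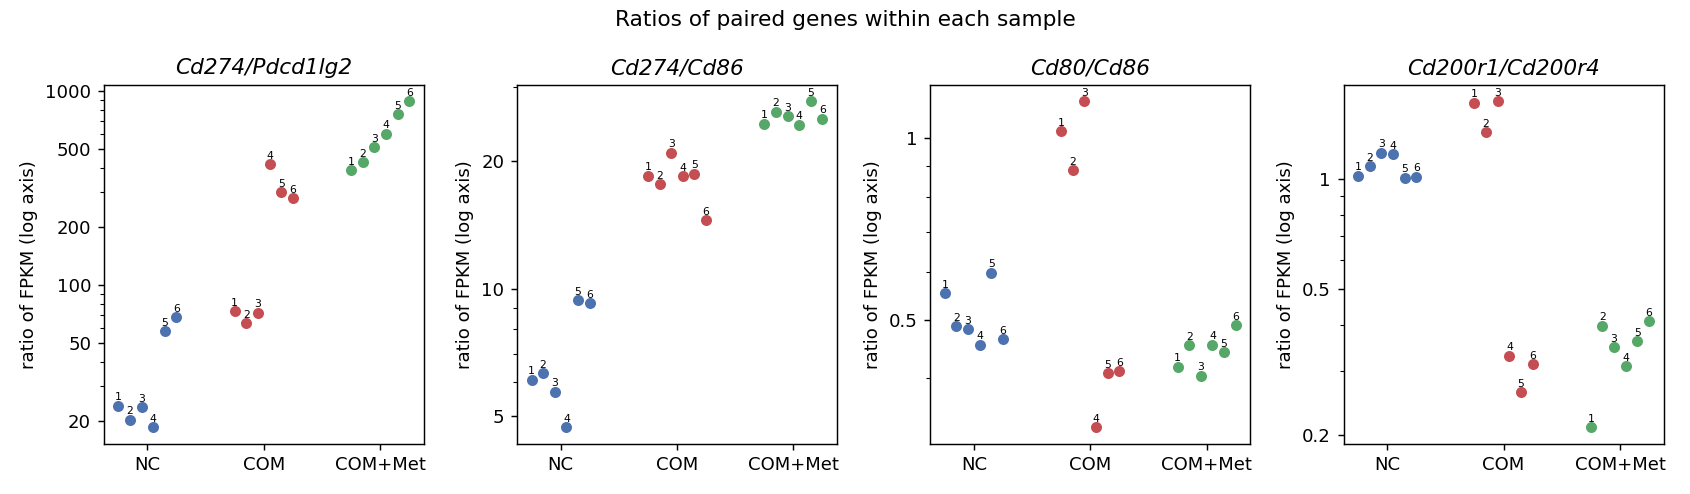
Ratios of FPKM within each sample (vertical log axes) for Cd274/Pdcd1lg2, Cd274/Cd86, Cd80/Cd86 and Cd200r1/Cd200r4 in NC, COM and COM+Met. Points are samples with their replicate number. Cd274/Cd86 separated the 3 groups without overlap, while Cd80/Cd86 and Cd200r1/Cd200r4 split COM-1 to COM-3 from COM-4 to COM-6.

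The CD28 ligands Cd80 (ENSMUSG00000075122; chr16:38455561-38496335) and Cd86 (ENSMUSG00000022901; chr16:36603869-36666081, - strand) differed in how evenly they changed. Cd80 ranged from 3.02 to 8.46 FPKM in NC (median 7.21), from 10.1 to 17.7 in COM (median 11.1) and from 7.45 to 8.83 in COM+Met (median 8.26). All COM samples lay above all NC and all COM+Met samples, and the highest was COM-6. The rise in COM was 0.88 on the log2 scale (SE 0.22, adjusted p = 0.00481), or 1.15 relative to the median of all genes, with means of 12 ± 2.82 against 6.31 ± 2.27 FPKM (SD, n = 6 each). It stayed past the test without NC-5 and NC-6 (0.56) and without either set of COM samples. In COM+Met it was lower than in COM by 0.47 (SE 0.12, adjusted p = 0.0173), with a mean of 8.24 ± 0.473 FPKM (SD, n = 6). That call was lost with median-of-ratios size factors, with quantile normalisation and with all 18 samples in the fit, where the adjusted p over all alternatives ran from 4.44e-05 to 0.0870. COM+Met and NC, neighbours in the order of means, did not differ by the test (0.41, 95% CI -0.011 to 0.82, adjusted p = 0.0716). That comparison depended on the scaling and the NC samples: it passed with median-of-ratios size factors (0.66), with quantile normalisation (0.70) and without NC-1 or NC-2, and was 0.083 and not past the test without NC-5 and NC-6.

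Cd86 ranged from 6.5 to 16.5 FPKM in NC (median 15.0), from 9.48 to 43.1 in COM (median 19.9) and from 18 to 20.02 in COM+Met (median 18.4). COM-1 to COM-3 at 9.48 to 11.4 lay below NC-1 to NC-4, whereas COM-4 to COM-6 at 28.4 to 43.1 lay above every NC and COM+Met sample. The comparison of COM with NC did not pass (0.66, 95% CI -0.19 to 1.5, adjusted p = 0.173, and 0.93 relative to the median of all genes). It was 1.45 and passed without COM-1 to COM-3, and did not pass at -0.14 without COM-4 to COM-6 or at 0.28 without NC-5 and NC-6. COM+Met against COM gave -0.04 (95% CI -0.75 to 0.67, adjusted p = 0.950), which became -0.83 without COM-1 to COM-3 and 0.76 without COM-4 to COM-6, both past the test. Against NC, all COM+Met samples were higher, by 0.62 on the log2 scale (SE 0.22, adjusted p = 0.0213), a call that was lost with all 18 samples in the fit. Without NC-5 and NC-6, the NC samples lowest in Cd86, it was smaller at 0.24 and still passed. The Cd80/Cd86 ratio was 0.455 to 0.598 in NC and 0.403 to 0.489 in COM+Met, but ran from 0.331 to 1.15 in COM.

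Icosl (ENSMUSG00000000732; chr10:78069302-78083913), the ICOS ligand, showed the most uniform rise. It ranged from 7.41 to 11.7 FPKM in NC (median 9.31), from 11 to 14.4 in COM (median 13.3) and from 21.2 to 27.0 in COM+Met (median 24.2). COM overlapped NC only through NC-5 at 11.7, and COM+Met lay above both groups in every sample. The change was 0.44 in COM against NC (SE 0.11, adjusted p = 0.00616), or 0.71 relative to the median of all genes, and 0.86 in COM+Met against COM (SE 0.087, adjusted p = 0.00011), the latter a ratio of means of 1.88. Unlike in Cd86 and Cd274, COM-1 to COM-3 (11 to 14) and COM-4 to COM-6 (11.3 to 14.4) covered the same range. Icosl passed the test in all 3 comparisons under every alternative tried, and against NC the change in COM+Met was 1.30 (SE 0.094, adjusted p = 4.97e-08).

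Cd83 (ENSMUSG00000015396; chr13:43784775-43803132) codes for a surface protein of mature dendritic cells and activated lymphocytes. It ranged from 2.61 to 15.2 FPKM in NC (median 10.8), from 8.14 to 21.4 in COM (median 13.1) and from 7.05 to 11.4 in COM+Met (median 9.31), and all groups overlapped. NC-5 and NC-6 at 2.61 and 2.65 were the lowest samples, and COM-1 to COM-3 at 16.6 to 21.4 the highest. None of the comparisons passed the test, with log2 changes of 0.67 in COM against NC (95% CI -0.21 to 1.56, adjusted p = 0.182, and 0.94 relative to the median of all genes), -0.43 in COM+Met against COM (95% CI -0.91 to 0.057, adjusted p = 0.232) and 0.25 in COM+Met against NC (95% CI -0.55 to 1.04, adjusted p = 0.55). Left-out samples moved these calls: COM+Met against NC became -0.37 and passed without NC-5 and NC-6, and COM+Met against COM became -0.93 and passed without COM-4 to COM-6. COM against NC became 0.051 without NC-5 and NC-6, 0.18 without COM-1 to COM-3 and 1.17 without COM-4 to COM-6, none past the test. It passed with sample weights (0.63) and with the replicate number as a block, which the data did not support as a pairing.

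The summed level of mature dendritic cell markers was low and high in the same NC and COM samples as Cd83. It was 11.6 to 170 FPKM in NC (lowest in NC-5 and NC-6), 669 to 745 in COM-1 to COM-3, 274 to 310 in COM-4 to COM-6 and 175 to 332 in COM+Met. Group means reached 1 FPKM for 5 of 11 markers in NC, 7 in COM and 4 in COM+Met, and in COM the sum was made mainly by Ccl22, Ccr7 and Fscn1. Not all markers followed the sum: Ccl17 had means of 29.6, 6.85 and 3.20 FPKM in NC, COM and COM+Met, and Clec9a of 3.40, 2.37 and 0.764. Flt3 was at 0.370, 2.49 and 0.896 and Zbtb46 at 0.978, 1.70 and 0.613. Lamp3, Xcr1 and Siglech were below 0.3 FPKM in every sample, and Cd209a was listed at 0 in every COM and COM+Met sample. The part of these cells in the levels of Cd83, Cd80 and Pdcd1lg2 was not tested.

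**Figure D4:**
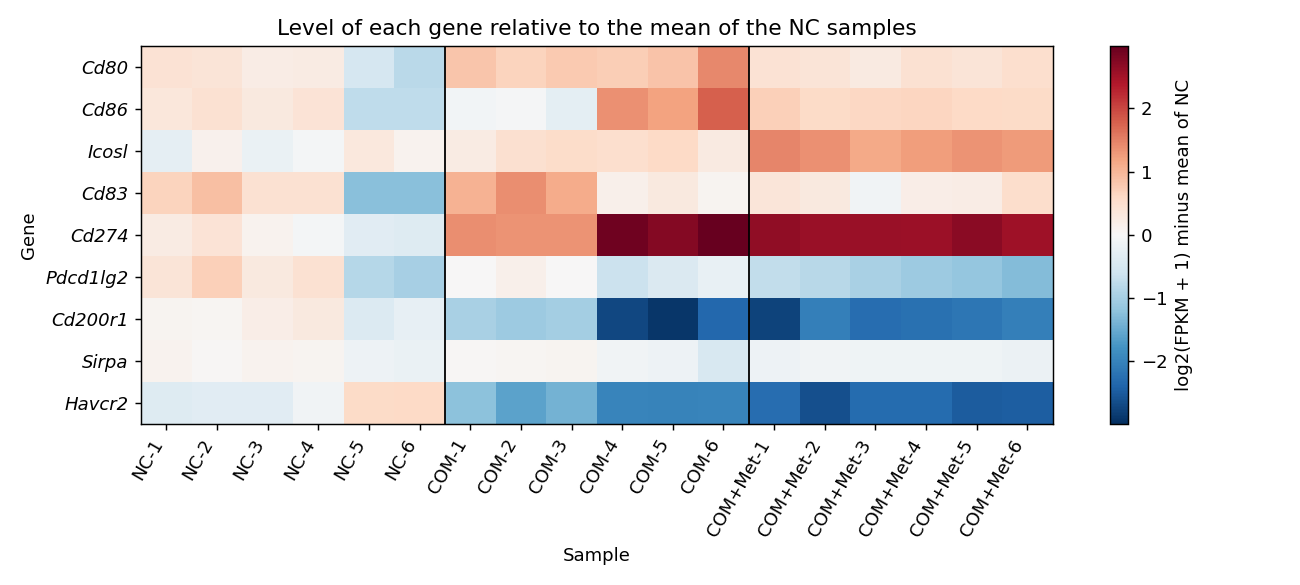
Level of each gene in each of the 18 samples, as log2(FPKM + 1) minus the mean of the 6 NC samples (colour scale, red above and blue below). NC-5 and NC-6 were low in Cd80, Cd86, Cd83 and Pdcd1lg2 and high in Havcr2, and COM-4 to COM-6 resembled COM+Met in Cd274 and Cd200r1.

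Of the receptors on the macrophage, Havcr2 (ENSMUSG00000020399; chr11:46454935-46481255) fell at each step. It ranged from 13.1 to 26.8 FPKM in NC (median 14.8), from 3.60 to 6.92 in COM (median 4.41) and from 1.996 to 2.83 in COM+Met (median 2.54). The 3 groups did not overlap, and NC-5 and NC-6 at 26.3 and 26.8 were far above the other NC samples. In COM the mean was 4.83 ± 1.40 against 18.3 ± 6.53 FPKM in NC (SD, n = 6 each), 3.78-fold lower, with a log2 change of -1.69 (SE 0.22, adjusted p = 3.95e-05) or -1.42 relative to the median of all genes. COM+Met was lower than COM by 0.71 (SE 0.14, adjusted p = 0.00672), with a mean of 2.49 ± 0.330 FPKM (SD, n = 6). These calls stood without NC-5 and NC-6 (-1.40 in COM against NC), without COM-1 to COM-3 (-1.98 and -0.42) and without COM-4 to COM-6 (-1.40 and -1.0). Against NC the change in COM+Met was -2.40 (SE 0.18, adjusted p = 6.31e-08), 7.32-fold lower in means.

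Cd200r1 (ENSMUSG00000022667; chr16:44765736-44794978) ranged from 70.8 to 115 FPKM in NC (median 98.4), from 11.7 to 47.7 in COM (median 30.5) and from 13.01 to 22.1 in COM+Met (median 19.9). Every COM and COM+Met sample lay below every NC sample, and within COM the samples at 43.5 to 47.7 (COM-1 to COM-3) and 11.7 to 17.6 (COM-4 to COM-6) were apart. The mean fell from 95.03 ± 17 to 30 ± 17.5 FPKM (SD, n = 6 each), 3.17-fold, with a log2 change of -1.84 (SE 0.35, adjusted p = 0.000845), or -1.57 relative to the median of all genes. The log2 change was -1.02 without COM-4 to COM-6 and -2.66 without COM-1 to COM-3. COM+Met against COM gave -0.40 (95% CI -1.16 to 0.35, adjusted p = 0.48), which was -1.23 and past the test without COM-4 to COM-6 and 0.42 and not past it without COM-1 to COM-3. Against NC the change in COM+Met was -2.24 (SE 0.14, adjusted p = 1.33e-08), 4.93-fold lower in means.

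The related receptor gene Cd200r4 lies 16.8 kb from Cd200r1, and how the authors' counting split reads between such paralogues is not given in the sources used here, so both levels are uncertain. Its level was 90.1 to 98.5 FPKM in NC-1 to NC-4, against 70.1 to 78 in NC-5 and NC-6. It was at 28.3 to 32.4 in COM-1 to COM-3, 40.4 to 56.3 in COM-4 to COM-6 and 57.3 ± 3.99 in COM+Met (SD, n = 6). The order of the COM samples was thus opposite to that in Cd200r1. The Cd200r1/Cd200r4 ratio was 1.01 to 1.18 in NC, 1.34 to 1.63 in COM-1 to COM-3, 0.262 to 0.329 in COM-4 to COM-6 and 0.210 to 0.409 in COM+Met.

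Sirpa (ENSMUSG00000037902; chr2:129592835-129632228) had high and even levels. It ranged from 362 to 449 FPKM in NC (median 434), from 298 to 440 in COM (median 405) and from 370 to 383 in COM+Met (median 378). NC-5, NC-6 and COM-4 to COM-6 were lower than the other NC and COM samples, and all groups overlapped. The changes were -0.09 in COM against NC (95% CI -0.36 to 0.18, adjusted p = 0.544, and 0.18 relative to the median of all genes), -0.05 in COM+Met against COM (95% CI -0.27 to 0.18, adjusted p = 0.804) and -0.14 in COM+Met against NC (95% CI -0.27 to -0.0065, adjusted p = 0.0542). With median-of-ratios size factors the sign turned in both comparisons with NC, to 0.22 and 0.16, and the latter passed the test. COM+Met against NC also passed in the other direction, at -0.23 without NC-5 and NC-6 and -0.22 with sample weights, and without either of NC-5 and NC-6 alone. COM+Met against COM passed at -0.20 without COM-4 to COM-6 and -0.19 with sample weights.

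Markers of other cells moved with the groups as well. Tubular epithelial markers summed to 10.9 to 18.2 FPKM in NC, made mainly by Cdh1, 0.468 to 1.37 in COM and 0.0575 to 0.332 in COM+Met, and 1 of 11, 0 of 11 and 0 of 11 reached a group mean of 1 FPKM. B cell markers, 6 in all, summed to 1.70 to 5.70 FPKM in NC, 30.4 to 51 in COM and 34.3 to 42.8 in COM+Met, made mainly by Blnk, with 1 of 6 at a group mean of 1 FPKM or more in each. The 10 neutrophil markers summed to 539 to 1027 FPKM in NC, 187 to 561 in COM and 86.9 to 145 in COM+Met. Mmp8 had the highest mean in each group, and 8, 6 and 5 of the 10 reached a group mean of 1 FPKM. Ly6g and Retnlg did so in no group and were at most 0.257 and 0.307 FPKM in any sample. Camp (4.33, 7.93 and 3.08 FPKM) and Csf3r (9.68, 12.6 and 10.7) had higher means in COM than in NC, the others lower. Stromal markers, 7 in all, summed to 14.4 to 60.4, 4.61 to 36.7 and 2.33 to 7.33 FPKM. Of these, 6, 4 and 1 reached a group mean of 1 FPKM. The mean of Pdgfrb was higher in COM than in NC (1.06, 4.81 and 2.93 FPKM), those of the others lower. In COM the neutrophil sum was 528 to 561 in COM-1 to COM-3 and 187 to 245 in COM-4 to COM-6, the same order as in Cd200r1 and Havcr2. In NC it was 539 and 560 in NC-5 and NC-6 and 890 to 1027 in the others, the same order as in Cd200r1 and the opposite of that in Havcr2. Whether such cells were present and had a part in the fall of Cd200r1 and Havcr2 was not tested.

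Other genes of these pathways were followed in 6 lists, to be read against the shares of all genes that rose (12.7%) and fell (40.6%) in COM, and that rose (5.77%) and fell (7.58%) in COM+Met against COM, with medians of -0.27 and 0.0033. Group means stayed below 1 FPKM throughout for 3 partners, 3 costimulatory genes, 5 inhibitory genes and 4 relatives. Of 10 partners of the 9 proteins, 7 were tested in COM against NC, of which 4 rose and 3 fell, with a median of 0.37. Lgals9, which codes for the Tim-3 ligand galectin-9, rose from 54.0 ± 3.71 to 179 ± 37.4 FPKM (SD, n = 6 each; log2 change 1.69, adjusted p = 7.07e-07), while the transcripts of the other Tim-3 ligands fell, Ceacam1 from 24.5 to 8.77 FPKM (-1.42, adjusted p = 0.000744) and Hmgb1 from 33.4 to 13.4 (-1.26, adjusted p = 3.36e-06). Thus the transcripts of the ligands of this receptor did not move together. Cd200, the ligand of the CD200 receptor, rose from 6.40 to 19.0 FPKM (1.43, adjusted p = 0.00487) and Cd47, the ligand of SIRPα, from 50.4 to 76.4 (0.57, adjusted p = 0.00363). Cd200 was no longer past the test without COM-4 to COM-6. Of the T cell receptors, Ctla4 was listed at 0 in all samples, and Icos and Pdcd1 had means of at most 0.325 FPKM in any group. Cd28 was at 1.28 to 3.66 FPKM in NC and fell without overlap to a mean of 0.686 in COM (-0.91, adjusted p = 0.000588). Its COM mean lay below the filter, so Cd28 entered the test only through NC. Of 6 partners tested in COM+Met against COM, 1 passed, Ceacam1 (4.56 against 8.77 FPKM, -0.73, adjusted p = 0.0484), and it stayed past the test in 9 of 23 alternatives, whose adjusted p ran from 2.51e-07 to 0.275.

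Other costimulatory genes of antigen-presenting cells, 16 listed and 12 tested, rose in 7 and fell in 1 in COM, with a median of 1.41. Cd40, which receives help from T cells through CD40 ligand, rose from 3.44 ± 2.88 to 51.6 ± 28.9 FPKM (SD, n = 6 each; log2 change 3.71, adjusted p = 5.53e-05). Tnfsf4, the OX40 ligand gene, rose from 0.506 to 5.91 FPKM (2.16, adjusted p = 3.36e-06). Its NC mean lay below the filter, so it entered the test only through COM. The SLAM family genes Slamf7 and Slamf8 rose from 38.4 to 192 FPKM (2.42, adjusted p = 0.000416) and from 1.54 to 15.4 (2.46, adjusted p = 0.000908). With Met, 3 of 13 rose and 3 fell against COM, so the list had no common direction (median 0.19). Slamf8 rose further to 42.3 FPKM (1.73, adjusted p = 0.017), whereas Tnfsf4 fell to 1.69 (-1.35, adjusted p = 0.00204) and Cd24a, coding for the small surface glycoprotein CD24, fell from 103 to 27.7 (-1.67, adjusted p = 0.0134).

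Other inhibitory genes of myeloid cells, 23 listed and 17 tested, were split in COM, with 7 higher, 5 lower and a median of -0.024. Siglece, a sialic acid-binding inhibitory receptor, rose from 4.21 ± 1.05 to 54.6 ± 14.8 FPKM (SD, n = 6 each; log2 change 3.40, adjusted p = 4.28e-08). Lower were Cd300a (45.4 to 4.40 FPKM, -3.05, adjusted p = 4.14e-07), also an inhibitory receptor, Lgals3 for galectin-3 (2172 to 702, -1.69, adjusted p = 6.29e-05) and the lectin receptor gene Clec4a2 (102 to 40.0, -1.53, adjusted p = 0.0035). Against COM, none of 16 rose in COM+Met and 4 fell, with a median of -0.27. Clec4a2 fell to 7.05 FPKM (-2.12, adjusted p = 0.002) and Siglec1, the sialoadhesin gene, from 31.0 to 13.7 (-1.05, adjusted p = 0.00366).

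Relatives of the 3 receptors, 9 listed and 5 tested, included Cd200r2 and Cd200r4, which were lower in COM with log2 changes of -1.82 (adjusted p = 1.87e-06) and -1.19 (adjusted p = 8.62e-05). Means of Cd200r2 were 5.52 FPKM in NC and 0.886 in COM, the latter below the filter, so it entered the test only through NC. Sirpb1a and Sirpb1b, which unlike Sirpa code for activating receptors, rose from 26.2 to 47.2 FPKM (0.83, adjusted p = 0.00413) and from 26 to 46.1 (0.76, adjusted p = 0.0146), calls that were both lost without COM-4 to COM-6, and that of Sirpb1b also without NC-5 and NC-6 and with sample weights. The median of the list was 0.23. Against COM, 3 of 4 fell in COM+Met and 1, Cd200r4, rose by 0.60 (adjusted p = 0.0207), with a median of -1.30. Sirpb1c fell from a mean of 112 ± 14.9 in COM to 35.1 ± 4.81 FPKM in COM+Met (SD, n = 6 each; log2 change -1.65, adjusted p = 5.69e-06) and Sirpb1a to 17.5 FPKM (-1.37, adjusted p = 0.00038). The Sirpb1 genes are near-identical copies, so their separate levels are uncertain.

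Proteins that act below the inhibitory receptors, 10 listed and tested, fell in 5 and rose in 1 in COM, with a median of -0.40. The kinase gene Fyn (3.36 to 1.47, -0.84, adjusted p = 0.000541) and Inpp5d, the gene of the phosphatase SHIP-1 (53.7 to 35.5, -0.59, adjusted p = 0.000642), fell. The adaptor gene Dok2 fell from 47.6 to 24.6 FPKM (-1.28, adjusted p = 0.0435), past the test in 13 of 24 alternatives, whose adjusted p ran from 0.000617 to 0.303. In COM+Met, Lyn, which codes for a kinase, fell from 47.0 to 34.2 FPKM against COM (-0.45, adjusted p = 0.00218), with a median of -0.26 for the list, in which 0 rose and 2 of 10 fell.

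The list on control of ligand transcription and surface half-life, with 23 of 27 names in the table, rose in 9 and fell in 5 in COM, with a median of 0.21. Interferon signalling genes had the largest values. Irf7 rose from 8.52 ± 4.22 to 594 ± 193 FPKM (SD, n = 6 each; log2 change 6.05, adjusted p = 3.62e-08), Jak2 from 28.1 to 134 (2.29, adjusted p = 3.13e-05) and Stat2 from 16.1 to 86.4 (2.26, adjusted p = 3.48e-05). With Met 2 of 23 rose against COM and 1 fell, with a median of 0.017. Irf1, a transcription factor induced by interferon, rose from 75.4 to 118 FPKM (0.72, adjusted p = 0.0452), in 8 of 23 alternatives with an adjusted p from 1.53e-07 to 0.212, and Stat3 fell from 52.4 to 41.0 (-0.35, adjusted p = 0.0076), a call lost with the replicate block.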

How the data were processed

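RNA-seq of BMDMs in coculture was analysed in 18 samples, grouped by their labels. The authors deposited FPKM values for each gene and sample. Bowtie 0.12.2, mm8 and mm9 appear in the submitters' notes without a stated role. The quantifier is not given in the sources used here. All sample columns entered (0 unused), and the FPKM steps gave no whole reads.

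Tests were run on log2(FPKM + 1) for genes averaging 1 FPKM or more in a comparison's 12 samples, with limma 3.58.1 (lmFit, eBayes with trend) in R 4.3.3, each comparison in its own fit, with Benjamini-Hochberg adjustment over all genes tested. The filter took the mean over both groups, so a gene could enter a test through its higher group alone. Means below the filter were those of Tnfsf4 in NC, Cd28 and Cd200r2 in COM and Pdcd1lg2 in COM+Met, among the genes named with a test. A gene passed at an adjusted p below 0.05, and at 2-fold with an absolute log2 change of at least 1. The fit was run on simulated data with known changes and independent noise in each gene and sample. The simulation held no sets of samples that stood apart, so it could not check the fit against the splits within NC and COM. Other steps used Python 3.11.15 (pandas 2.3.3, scipy 1.17.1, matplotlib 3.10.9). Since FPKM is scaled to the total of a sample, a gene falls when abundant genes rise.

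The 9 genes and all gene lists were chosen with earlier results of these data known. Named were all 9 genes and, from each list, up to 4 genes with the largest change in COM against NC and up to 2 in COM+Met against COM among those past the test. Some genes that this rule names are not reported here. Cd47, Cd28, Icos, Pdcd1 and Ctla4, and Tnfsf4 and Cd200r4 where their further values are given, were added after their values were seen. In the closing part, the 3 genes nearest to each of the 9 in centred log2(FPKM + 1) over 18 samples were named. Alternatives were other pseudocounts (0.1 and 5), filters (none and 5 FPKM), scalings, a replicate block, all 18 samples in the fit, sample weights and each sample left out. Leaving out NC-5 and NC-6, COM-1 to COM-3 or COM-4 to COM-6 was chosen after seeing the data. Positions are from GENCODE M21 (GRCm38) and promoters from RefSeq (GRCm38.p6), not from mm8 or mm9.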

Additional observations from a re-analysis of the deposited data

Results flagged for a closer look

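Within each group of 6, the gap between the highest or lowest sample and its nearest neighbour was set against the range of the group for 27 sets of gene and group. In 2 sets the gap passed Dixon's limit for 6 samples, and chance gives about 1 in 20. Cd80 in COM-6 was 17.7 FPKM, above 10.1 to 11.6 in the other COM samples (gap 0.756 of the range). Cd200r1 in COM+Met-1 was 13.01 FPKM, below 18.6 to 22.1 in the other COM+Met samples (gap 0.670 of the range).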

How the results depend on the processing

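Of 617 alternative values for the 9 genes, 570 kept their direction and side of the threshold. In COM against NC the 5 calls (Cd80, Icosl, Cd274, Cd200r1 and Havcr2) held in every alternative. Cd80 in COM+Met against COM was lost with both other scalings and with all 18 samples, and Cd86 in COM+Met against NC with all 18 samples. In COM against NC, 5 genes passed at 2-fold without COM-1 to COM-3, and 4 with either other scaling. In COM+Met against NC, 4 passed at 2-fold, without Pdcd1lg2, with a pseudocount of 5, a filter of 5 FPKM or either other scaling. There 8 passed the test with median-of-ratios size factors and without NC-5 and NC-6. With quantile normalisation and with sample weights 7 passed it, and with the filter of 5 FPKM (8 genes tested) and all 18 samples 5. In COM+Met against COM, 1 (pseudocount 0.1), 3 (sample weights) and 4 (without COM-4 to COM-6) passed at 2-fold, and 2 (filter of 5 FPKM, 7 genes tested), 9 (sample weights) and 9 (without COM-4 to COM-6) passed the test. Over all genes in that comparison, 744 passed with the replicate block, 6680 with sample weights, 2753 without COM-6, 2439 without COM-1 to COM-3 and 6349 without COM-4 to COM-6, against 1384. With 1 sample left out in turn, 5 to 5 genes passed in COM against NC (3 to 3 at 2-fold, 5212 to 6511 of all genes), 4 to 4 in COM+Met against COM (0 to 0, 943 to 2753) and 6 to 7 in COM+Met against NC (4 to 5, 7913 to 8084).

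Signs that turned were of genes not past the test in the fits as reported. In COM against NC they were Pdcd1lg2 at 0.024 (median-of-ratios), 0.10 (quantile) and 0.059 (without COM-4 to COM-6), Sirpa at 0.22 (median-of-ratios) and 0.062 (without COM-4 to COM-6), and Cd86 at -0.36 (sample weights) and -0.14 (without COM-4 to COM-6). In COM+Met against COM they were Cd86 at 0.00098 (quantile), 0.69 (sample weights), 0.10, 0.070 and 0.19 (without COM-4, COM-5 or COM-6, in a range of -0.23 to 0.19) and 0.76 (without all 3), Sirpa at 0.018 (quantile) and 0.11, Cd83 at 0.074, Cd274 at -0.29 and Cd200r1 at 0.42 (all without COM-1 to COM-3). In COM+Met against NC they were Sirpa at 0.16 (median-of-ratios) and Cd83 at -0.30 (sample weights), -0.0021 (without NC-5, in a range of -0.0021 to 0.43) and -0.37 (without NC-5 and NC-6). The causes were not tested.

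Same-numbered samples did not deviate together (correlations of -0.222 to 0.057), and 0 of 6 matched best with their own number in any comparison, so the replicate numbers gave no pairing. The replicate block added Cd83 in COM against NC and lost none of the 9. Depth is unknown, so the precision of low values such as those of Pdcd1lg2 is unknown too.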

Other observations

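The genes whose pattern over the 18 samples lay nearest to each of the 9 were sought among 10324 genes, by the root-mean-square difference of centred log2(FPKM + 1), as a description that rests in part on the low and high samples shared within NC and COM. For Cd274, whose own spread was 1.22 on this scale, they were Stat2 (difference 0.17), Cflar (0.17), which codes for the caspase-8 regulator c-FLIP, and B2m (0.18), for the light chain of MHC class I, with B2m at means of 1032 FPKM in NC, 6153 in COM and 7407 in COM+Met. For Pdcd1lg2 (own spread 0.62) the nearest was Irf4 (0.15), a transcription factor, at means of 4.18, 2.75 and 1.25 FPKM, before Ccdc50 and Zfp36l1. For Havcr2 (own spread 1.06) it was Capn2 (0.16), a calpain protease, at 83.8, 25.2 and 16.8 FPKM, before Trim16 and Espl1, and for Cd200r1 (own spread 1.11) Ank (0.18), a membrane protein of pyrophosphate transport, at 11.4, 3.21 and 1.68 FPKM, before Otulinl and Rcbtb2.

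For Cd83 the nearest was Birc3 (0.21), an inhibitor of apoptosis in NF-kappa B signalling, before Fcrlb and Zfp366. For Cd80 they were Tifa (0.16), Msr1, the scavenger receptor gene, and P2ry14. For Icosl they were Aga (0.19), a lysosomal enzyme gene, Hspe1 and Tm9sf4, and for Cd86 Igf2bp2 (0.23), Ifi207 and Gm6377. Sirpa, with an own spread of 0.15, lay nearest to Nrbp1 (0.057), Med13l and Srd5a3.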
